A study of Mus musculus with 24 samples.

Results

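PPAR alpha is the nuclear receptor by which the liver senses fatty acids, and it works as a partner of the retinoid X receptor (RXR). It switches on genes for fatty acid uptake and oxidation, and it is most active when fat reaches the liver in quantity, as in fasting. Beyond the enzymes of beta-oxidation, it also controls genes that send signals out of the liver or direct the choice of fuel. Here 9 such genes were followed: the secreted factors Fgf21 and Angptl4, the enzymes Pdk4, Vnn1, Mgll, Cyp4a10 and Cyp4a14, the membrane-bound transcription factor Creb3l3 (CREB-H), and Ppara itself. They were listed by name, with earlier results of these data known. Of the 9 genes, 8 have a probe set that the array annotation assigns to that gene alone, out of 18820 genes with such a probe set. Both probe sets that name Cyp4a10 are shared with Cyp4a31, and 1 of them also with Cyp4a32, so Cyp4a10 has no value of its own. In the RefSeq annotation these genes and Cyp4a14 lie next to each other on chromosome 4. Cyp4a14 has 1 probe set that names no other gene, although probes of close relatives can pick up each other's RNA.

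The livers came from 24 male mice, C57BL/6J by their labels and 4 to 6 months old, that were fed for 7 weeks. The diets differed in their fat: partially hydrogenated soy oil for the Trans group, a mix of canola oil with palm olein for the Cis group and cocoa butter for the Saturated group, with 8 mice in each. Fat supplied 45 energy percent of every diet, so no group ate a low-fat diet, and the Trans group differs from each other group in the whole oil and not in trans fatty acids alone. Each liver was hybridised to 1 array of the Affymetrix type Mouse Gene 1.1 ST. The sources used here do not give whether the mice were fed or fasted when the livers were taken, nor the order of dissection or the scan dates. The comparison of Trans with each other diet asks how livers differ between a fat rich in trans fatty acids and another fat. Cis against Saturated compares the 2 reference diets. The 3 comparisons share groups and are not independent of each other.

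The arrays had similar overall values. Their median log2 values lay between 2.94 and 3.06, and each array correlated with the others at a median r between 0.975 and 0.986. The summed signal of 10 hepatocyte markers was 38760 to 44240 across the livers, and none of 5 adipocyte, 5 striated muscle or 3 exocrine pancreas markers had a mean signal over 20. Between diets, all 10 hepatocyte markers had a lower mean on Trans than on Saturated (median -0.04, 1 at an unadjusted limma p under 0.05) and 9 of 10 had one on Cis (median -0.03, 2 under 0.05). Of 6 Kupffer cell markers, 5 had a lower mean on Trans (median -0.26, 1 under 0.05) and 6 on Cis than on Saturated (median -0.25, none under 0.05). The part of these markers in the differences below was not tested. In whole liver, fewer cells of a type and less RNA per cell cannot be told apart. Single livers did stand apart for these genes. Trans replicate 1 had an Angptl4 value far below every other liver, and Saturated replicate 2 had the lowest Fgf21 and Pdk4 of its diet together with the highest Angptl4, Creb3l3, Cyp4a14 and Ppara. Results that rest on these livers are therefore given with and without them.

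RefSeq promoter windows, from 250 bases before to 50 bases after a gene's start, were at hand for 5 of the 9 genes (Fgf21, Pdk4, Creb3l3, Mgll and Ppara) as 7 windows. The 250 bases upstream of Fgf21 and Mgll are shown, since Fgf21 is the hormone among these genes, Mgll had the smallest p-value among them, and these 2 windows held the most motif matches. Both are in GRCm38.p6 and run 5′ to 3′ on the strand of the gene. Fgf21 lies on the minus strand and its sequence is chr7:45615491-45615740, and Mgll lies on the plus strand and its sequence is chr6:88724162-88724411. Capitals mark, from left to right, an amino acid response element, an E-box and a TATA box in Fgf21, and a FOXO site and an E-box in Mgll.
Fgf21: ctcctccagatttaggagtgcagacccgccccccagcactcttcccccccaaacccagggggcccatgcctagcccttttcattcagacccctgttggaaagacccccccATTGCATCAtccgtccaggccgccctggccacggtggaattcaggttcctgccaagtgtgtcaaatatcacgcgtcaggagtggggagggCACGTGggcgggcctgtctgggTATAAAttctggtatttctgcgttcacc
Mgll: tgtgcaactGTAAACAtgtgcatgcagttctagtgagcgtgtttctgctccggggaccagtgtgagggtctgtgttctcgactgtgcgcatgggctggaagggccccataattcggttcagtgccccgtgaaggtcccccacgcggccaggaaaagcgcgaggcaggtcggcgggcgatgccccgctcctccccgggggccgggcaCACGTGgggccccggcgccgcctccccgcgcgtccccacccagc

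Each motif was searched on both strands of the whole windows. The amino acid response element (TGATGNAAT), which ATF4 is known to bind, lies at -140 to -132 of Fgf21 on the opposite strand and occurs in 0.965% of the 32851 windows in the table. The E-box CACGTG, a sequence bound by basic helix-loop-helix factors, lies at -50 to -45 of Fgf21 and at -44 to -39 of Mgll and occurs in 7.15% of windows. The TATA box (TATAAA) of Fgf21 lies at -28 to -23 and is found in 13.6% of windows, and the FOXO site (TGTTTAC) of Mgll lies at -241 to -235 on the opposite strand and is found in 3.65%. PPAR alpha with RXR binds direct repeats of a hexamer spaced by 1 base. The strict repeat AGGTCANAGGTCA occurs in 0.0396% of all windows and the relaxed form AGGNCANAGGNCA in 0.381%, and neither form is in any of the 7 windows. The hexamer AGGTCA alone is in 16.3% of all windows, and among these genes in that of Creb3l3, at -202 to -197. The cAMP response element (TGACGTCA) is in 1.79% of all windows and in none of the 7. A match is only a match of letters, and many PPAR alpha sites lie outside such windows.

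Among the 8 measured genes, the pantetheinase Vnn1 and the monoacylglycerol lipase Mgll had the smallest p-values between diets. Both had their lowest mean on the Saturated diet. Vnn1 was 1.53-fold higher on Trans than on Saturated, and Mgll was 1.36-fold higher on Cis and 1.24-fold higher on Trans than on Saturated. The 2 secreted factors and Pdk4 varied widely between livers of the same diet, and their differences between diets were smaller than that spread. No gene passed the test in any comparison after adjustment over all 35556 probe sets.

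**Figure D1:**
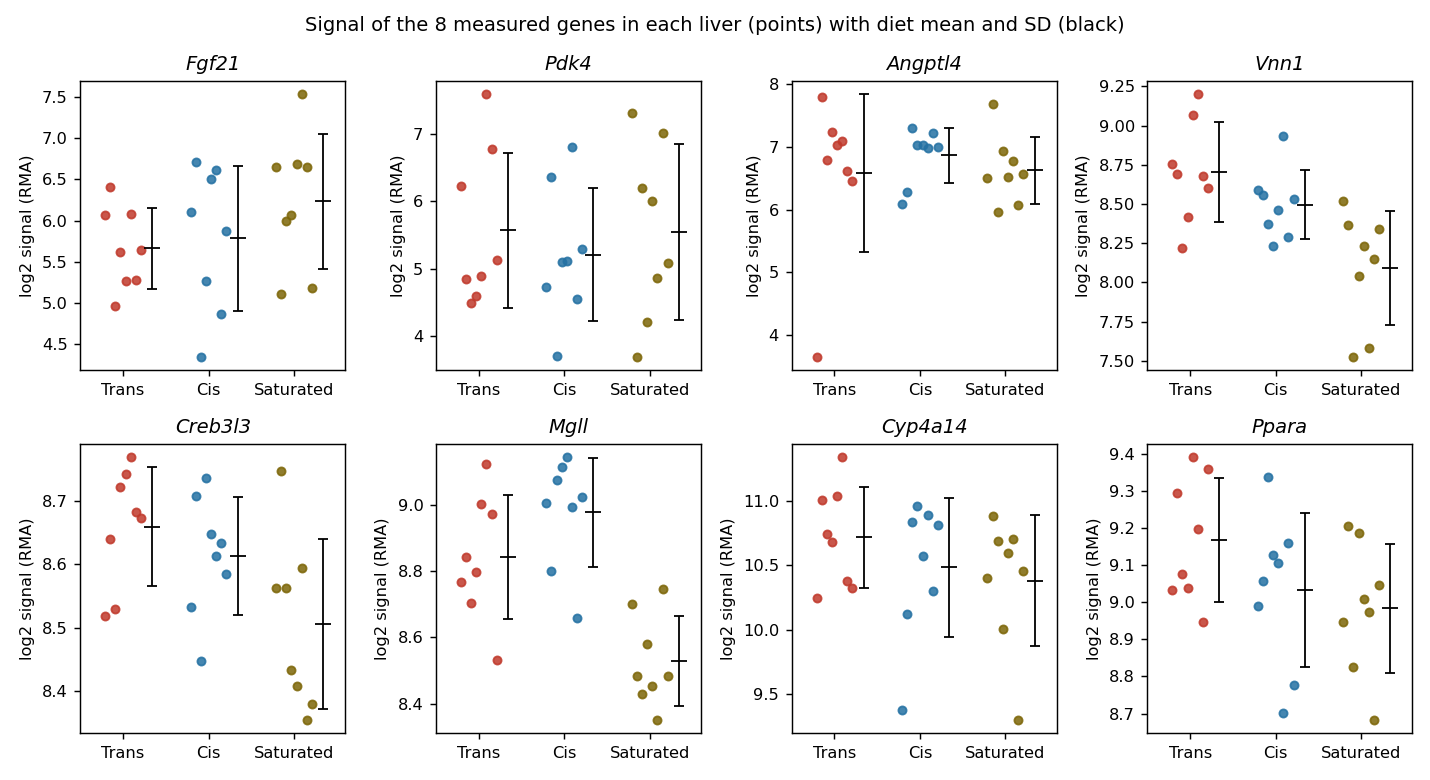
Log2 signal (RMA values) of each measured gene in each of the 24 livers, with the diet on the horizontal axis, points for livers, and the mean and SD of the 8 livers of a diet in black. Points of different diets overlap in every panel, and a single Trans liver lies at 3.65 for Angptl4. For Mgll, 5 of the 8 Saturated livers lie below every Trans liver and 6 below every Cis liver. For Vnn1, 4 lie below every Trans liver and 4 below every Cis liver.

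Vnn1 makes pantothenate and cysteamine from pantetheine and is a known target of PPAR alpha in liver. Its log2 signal ran from 8.22 over a median of 8.68 to 9.20 in Trans livers, from 8.23 over 8.50 to 8.93 in Cis livers and from 7.52 over 8.19 to 8.52 in Saturated livers. All 8 Trans livers lay above the Saturated mean, and 6 of them above the highest Saturated liver, yet the ranges overlapped. The Trans mean exceeded the Saturated mean by 0.61 (SE 0.15, 95% interval 0.30 to 0.91; limma adjusted p = 0.254), which was place 55 among the 35556 probe sets. The exact permutation test, two-sided over the 12870 ways to split the livers, gave p = 0.00202, where the smallest possible value is 0.000155. Cis exceeded Saturated by 0.40 (SE 0.15; limma adjusted p = 0.642; exact permutation p = 0.0129), with all 8 Cis livers above the Saturated mean. Trans and Cis differed by 0.21 (95% interval -0.10 to 0.51; limma adjusted p = 0.861).

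Mgll cleaves monoacylglycerols, the last step in breaking down stored triglyceride and the main route by which the endocannabinoid 2-arachidonoylglycerol is removed. Its log2 signal was 8.53 to 9.12 with a median of 8.82 in Trans livers, 8.66 to 9.14 with a median of 9.01 in Cis livers, and 8.35 to 8.74 with a median of 8.48 in Saturated livers. On Cis, 7 of 8 livers were above the highest Saturated liver, and on Trans 6 of 8 were. Cis exceeded Saturated by 0.45 (SE 0.083, 95% interval 0.27 to 0.62; limma adjusted p = 0.169), which was place 2 of all 35556 probe sets. The exact permutation test gave p = 0.000466 for the same difference. Trans exceeded Saturated by 0.31 (SE 0.083; limma adjusted p = 0.319), with an exact permutation p of 0.00202. Trans lay 0.13 below Cis, with an interval for Trans minus Cis of -0.31 to 0.04 and a limma adjusted p of 0.844. Neither the order of Trans and Cis for Vnn1 nor that for Mgll exceeded the spread between livers.

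Creb3l3 encodes CREB-H, a liver factor held in the endoplasmic reticulum, which acts with PPAR alpha on Fgf21 and other genes of fasting. It varied little: 8.52 to 8.77 in Trans livers (median 8.68), 8.45 to 8.74 in Cis livers (median 8.62) and 8.36 to 8.75 in Saturated livers (median 8.50). The Trans mean was 0.15 above the Saturated mean (SE 0.060; limma adjusted p = 0.591; exact permutation p = 0.021), and all 8 Trans livers lay above that mean. The upper end of the Saturated range was set by Saturated replicate 2, and without it the difference was 0.19 (limma adjusted p = 0.34). Cis lay 0.11 above Saturated (limma adjusted p = 0.816; exact permutation p = 0.0839).

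Ppara, the receptor itself, ranged from 8.95 to 9.39 in Trans livers (median 9.14), from 8.70 to 9.34 in Cis livers (median 9.08) and from 8.68 to 9.21 in Saturated livers (median 8.99). The largest of its differences was 0.18 between Trans and Saturated (95% interval -0.01 to 0.37; limma adjusted p = 0.698; exact permutation p = 0.0505). Cyp4a14, an omega-hydroxylase of fatty acids that PPAR alpha induces strongly in mice, ranged from 10.24 to 11.34 in Trans livers (median 10.71), 9.38 to 10.96 in Cis livers (median 10.69) and 9.30 to 10.88 in Saturated livers (median 10.52). The diet medians of Cyp4a14 were close, and single low livers, Cis replicate 1 and Saturated replicate 7, set the lower ends. Trans lay 0.34 above Saturated (95% interval -0.13 to 0.82; limma adjusted p = 0.802) and 0.24 above Cis (95% interval -0.24 to 0.71; limma adjusted p = 0.916).

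Fgf21 is the hormone by which the fasted or amino acid-deprived liver signals to adipose tissue and brain. Its log2 signal ran from 4.96 over a median of 5.63 to 6.40 in Trans livers, from 4.35 over 5.99 to 6.71 in Cis livers and from 5.11 over 6.36 to 7.53 in Saturated livers. It was the one gene of the 8 whose mean was lower on both Trans and Cis than on Saturated. The Trans mean was 0.57 below the Saturated mean, with an interval for Trans minus Saturated of -1.30 to 0.16 (limma adjusted p = 0.777; exact permutation p = 0.112). A single liver above the others, Saturated replicate 6 at 7.53, and a low one, Saturated replicate 2 at 5.11, spread that group. Without Saturated replicate 2 the difference was -0.73 (limma adjusted p = 0.638), and without Saturated replicate 6 it was -0.38 (limma adjusted p = 0.92).

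Pdk4, the kinase that switches off pyruvate dehydrogenase and so spares glucose when fat is burnt, had the widest spread of the 8 genes. Its log2 signal ran from 4.48 to 7.59 in Trans livers (median 5.01), from 3.70 to 6.81 in Cis livers (median 5.11) and from 3.68 to 7.31 in Saturated livers (median 5.54). These ranges are 8.64-fold, 8.66-fold and 12.4-fold between the lowest and the highest liver of a diet. Against that spread, the means of Trans and Saturated differed by 0.02 (95% interval -1.10 to 1.15; limma adjusted p = 0.999). Trans was 0.36 above Cis (95% interval -0.76 to 1.49) and Cis 0.34 below Saturated (interval for Cis minus Saturated -1.46 to 0.79). The interval for Trans minus Saturated thus reached past 1 log2 unit in both directions, so 8 livers per diet did not exclude a difference of that size. Without Saturated replicate 2, Trans minus Saturated was -0.24 (limma adjusted p = 0.96), the opposite sign.

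Angptl4 encodes a secreted inhibitor of lipoprotein lipase, induced by fatty acids through the PPARs. In Cis livers it ranged from 6.09 to 7.31 (median 7.02) and in Saturated livers from 5.97 to 7.69 (median 6.54). In Trans livers it ranged from 3.65 to 7.80 (median 6.92), and this low end was Trans replicate 1 alone. The other 7 Trans livers lay between 6.46 and 7.80 with a mean of 7.01 ± 0.44 (SD, n = 7), which is 10.3-fold above replicate 1. With all livers the Trans mean was 0.04 below the Saturated mean (95% interval -0.85 to 0.77; limma adjusted p = 0.991) and 0.28 below the Cis mean. Without Trans replicate 1 these differences turned to 0.38 above Saturated (limma adjusted p = 0.806) and 0.14 above Cis. Without both Trans replicate 1 and Saturated replicate 2, a setting chosen after the values were seen, Trans lay 0.53 above Saturated (limma adjusted p = 0.587).

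**Figure D2:**
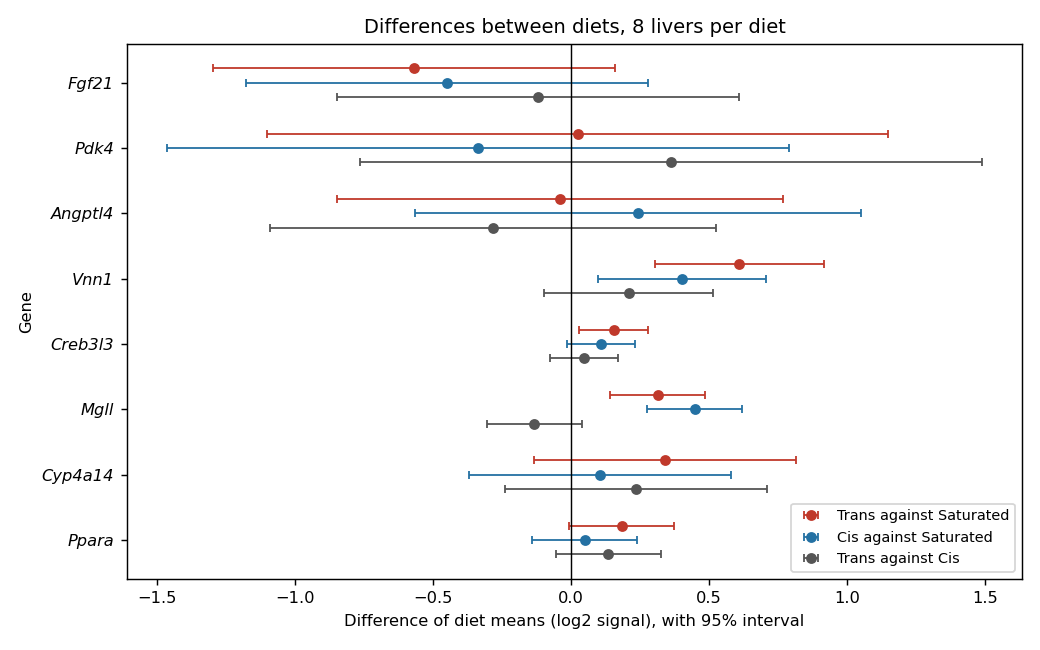
Difference of diet means in log2 signal (horizontal axis, with 95% intervals from limma) for the 8 measured genes (vertical axis) in the 3 comparisons, with 8 livers per diet. The intervals of Vnn1 and Mgll lie above 0 in both comparisons with Saturated, that of Creb3l3 does so for Trans against Saturated, and those of Fgf21, Pdk4 and Angptl4 span 0 widely.

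Trans against Saturated gave a higher mean for 6 of the 8 genes and a lower mean for 2, with a median difference of 0.17 on the log2 scale against 0.0038 over all 18820 genes. The call at a limma adjusted p under 0.05 was reached by 0 of 8, where 0.00844% of all probe sets were called, that is 3. At an unadjusted p under 0.05, 3 of 8 were higher on Trans (Vnn1, Mgll and Creb3l3) and 0 lower, where 4.55% of all genes were higher and 3.78% lower. The exact permutation test put the same 3 genes under 0.05. Without Saturated replicate 2, Ppara joined them at 0.21 and Fgf21 was under 0.05 in the lower direction, again with none called after adjustment.

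Trans against Cis separated the genes least. Means were higher on Trans for 5 genes and lower for 3, with a median difference of 0.09 against 0.0013 over all genes. Again 0 of 8 were called, where 0.00281% of probe sets were, and at an unadjusted p under 0.05 there were 0 higher and 0 lower, where 3.5% and 2.99% of all genes were. Their 8 intervals all included 0, and the narrowest, that of Creb3l3, ran from -0.08 to 0.17. In Cis against Saturated, 6 of 8 means were higher on Cis, with a median difference of 0.11 against 0.0036 over all genes. None was called, where 0.0% of all probe sets were. At an unadjusted p under 0.05, 2 of 8 were higher (Vnn1 and Mgll) and 0 lower, where 3.47% and 3.42% of all genes were.

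A p named as unadjusted is that of limma for a single gene, and none of the 128 genes of the lists below was called after adjustment (the smallest limma adjusted p were 0.219 in Trans against Saturated, 0.55 in Trans against Cis and 0.384 in Cis against Saturated). The background for counts at an unadjusted p under 0.05 is the share of all genes given above. Of 23 other PPAR alpha targets of liver, 19 had a probe set of their own, and all 19 had a higher mean on Trans than on Saturated, 13 of them at an unadjusted p under 0.05, with a median difference of 0.20. On Cis, too, all 19 means were above those on Saturated, with 4 at an unadjusted p under 0.05 and a median of 0.14. Trans was above Cis for 17 of 19, with a median of 0.07 and 1 gene under 0.05, the peroxisomal enzyme Ehhadh at 0.29. Those with the smallest p in Trans against Saturated were the peroxisomal thiolase Acaa1b at 0.31, the fatty acid translocase Cd36 at 0.63, the carnitine palmitoyltransferase Cpt2 at 0.21 and the mitochondrial thioesterase Acot2 at 0.67. The differences of Vnn1 (0.61) and Mgll (0.31) were within the range of these 4. These 4 were named for their small p, and both differences were above the median of all 19, 0.20. That of Fgf21 was -0.57, and that of Angptl4 was -0.04 with all livers, 0.38 without Trans replicate 1 and 0.11 without Saturated replicate 2.

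Among 12 measured PPAR and RXR receptors and coregulators, 6 means were higher and 6 lower on Trans than on Saturated. The coactivator Ppargc1a was 0.33 lower on Trans (SE 0.14) and 0.51 lower on Cis, while Ppargc1b was 0.45 higher on Trans (SE 0.16), each at an unadjusted p under 0.05. The related Cyp4 genes did not share one direction: of 12 measured, 6 were higher and 6 lower on Trans than on Saturated, with 1 of each at an unadjusted p under 0.05, Cyp4f15 at 0.21 (SE 0.097) and Cyp4f14 at -0.48 (SE 0.12). For Fgf21, the co-receptor Klb was 0.22 lower on Trans than on Saturated (SE 0.092; unadjusted p under 0.05). Fgfr2 was 0.33 lower on Cis than on Saturated and 0.28 higher on Trans than on Cis (SE 0.074 for both; unadjusted p under 0.05). Atf4, which acts on the amino acid response element printed above, was 0.33 lower on Trans than on Saturated (SE 0.096). Sesn2, a target of Atf4, was 0.27 higher (SE 0.11), and both were at an unadjusted p under 0.05. Of 9 measured genes of the amino acid and endoplasmic reticulum stress response, 5 means were higher and 4 lower on Trans than on Saturated. Only 2 of them, Atf4 and Sesn2, had a mean signal over 20.

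Near Angptl4, the related Angptl8, a factor of the fed state, was 0.88 lower on Trans than on Saturated and 0.77 lower than on Cis (SE 0.33 for both; unadjusted p under 0.05). For Lpl, the enzyme that Angptl4 inhibits, Trans minus Saturated was 0.03 (SE 0.20). Of 7 pyruvate dehydrogenase kinases, phosphatases and subunits, none was under an unadjusted p of 0.05 in any comparison. Of 7 genes of pantetheine and coenzyme A metabolism, Coasy alone was under it in Trans against Saturated, at 0.16 (SE 0.056). Of 9 measured CREB3 family members, proteases and CREB-H targets, the lipid droplet protein Cidec, also a PPAR target, was 1.57 higher on Trans and 1.23 higher on Cis than on Saturated (SE 0.37 for both; unadjusted p under 0.05). Apoc2, the apolipoprotein that activates lipoprotein lipase, was 0.16 higher on Trans than on Saturated and 0.20 higher than on Cis (SE 0.075 for both; unadjusted p under 0.05). Of 9 lipases, none was under 0.05 in Trans against Saturated.

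The genes of fasting and feeding had mostly lower means on Trans. Of 12 genes of fasting and gluconeogenesis, 8 means were lower on Trans than on Saturated and 4 of these were under an unadjusted p of 0.05, among them G6pc, the last enzyme of glucose release, at -0.57 (SE 0.20), and Fbp1 at -0.17 (SE 0.058). Of 8 measured genes of lipogenesis, 6 means were lower and none was under 0.05. Of 8 genes of the glucocorticoid response, Mt2 at 1.20 and Mt1 at 0.85 were higher on Trans than on Saturated, and Tsc22d3 was lower at -0.35, each at an unadjusted p under 0.05. The part of these genes in the values of Fgf21, Pdk4 and Angptl4 was not tested. Among the 6 measured glucose response genes none was under 0.05 in Trans against Saturated, while in Trans against Cis Txnip was higher on Trans at 0.29 and Tkfc and Khk, enzymes of fructose metabolism, were lower at -0.30 and -0.27.

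How far a gene varied between livers of the same diet differed strongly among the 8. The SD within diets, on the log2 scale, was 1.16 for Pdk4, 0.83 for Angptl4, 0.75 for Fgf21 and 0.48 for Cyp4a14, which are places 7, 37, 51 and 196 among 8298 genes with a mean signal over 20. It was 0.31 for Vnn1, 0.18 for Ppara, 0.16 for Mgll and 0.11 for Creb3l3, where the median gene had 0.17. Of the 2 genes with the smallest p-values, Mgll thus had a spread near that of the median gene and Vnn1 a wider one, at place 841. Pdk4, Angptl4 and Fgf21 were within the first 51 places. The spread of Angptl4 includes Trans replicate 1, which lay 3.36 below the mean of the other 7 Trans livers.

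Livers that were extreme for 1 gene were often extreme for others. Trans replicate 6 had the highest Trans value for Pdk4, Vnn1, Creb3l3, Mgll and Cyp4a14. Cis replicate 3 had the lowest Cis value for Fgf21, Pdk4 and Creb3l3 and the highest for Angptl4 and Ppara, and Saturated replicate 2 had the same low Fgf21 and Pdk4 beside high Angptl4 and Ppara. To describe this, each value was expressed as its deviation from the mean of its diet, and the 28 pairs of genes were correlated over the 24 livers with permutation tests.

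Pdk4 and Ppara went in opposite directions, with r = -0.62 and rho = -0.60 (permutation p = 0.00195 and 0.00371, adjusted over the 28 pairs 0.0273 and 0.0475). Without the 2 livers farthest in Pdk4, Saturated replicate 1 and Trans replicate 6, r was -0.73. With any single liver left out, r was between -0.69 and -0.57. Within diets r was -0.30 in Trans, -0.74 in Cis and -0.83 in Saturated livers. Angptl4 and Cyp4a14 went together, with r = 0.52 and rho = 0.55 (permutation p = 0.00172 and 0.00562, adjusted 0.0273 and 0.0475). Without the 2 livers farthest in Angptl4, one of them Trans replicate 1, r was 0.60. Leaving out Saturated replicate 2 alone gave 0.49, the weakest r with a single liver left out. Within diets r was 0.64, 0.82 and 0.43 in Trans, Cis and Saturated livers. By rank alone, Angptl4 also went against Pdk4 (rho = -0.58, r = -0.39) and with Ppara (rho = 0.54, r = 0.39), each with an adjusted permutation p of 0.0475 for rho. Their adjusted permutation p for r was 0.201 and 0.16. Leaving out Saturated replicate 2 alone gave their weakest r, -0.32 and 0.34, and rho was not taken without single livers. In Trans, Cis and Saturated livers r was -0.29, -0.34 and -0.81 for Pdk4 with Angptl4 and 0.36, 0.24 and 0.86 for Angptl4 with Ppara.

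Fgf21 and Pdk4 had r = 0.52 and rho = 0.51, which did not pass the adjustment (permutation p = 0.0113 and 0.015, adjusted 0.106 and 0.0838). Vnn1 and Mgll, the genes with the smallest p-values between diets, had r = 0.48 and rho = 0.44 (adjusted permutation p = 0.132 and 0.157). The 4 pairs named above as passing by r or rho were the only ones of the 28. Arrays normalised together share technical variation, and its part in these correlations was not tested.

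**Figure D3:**
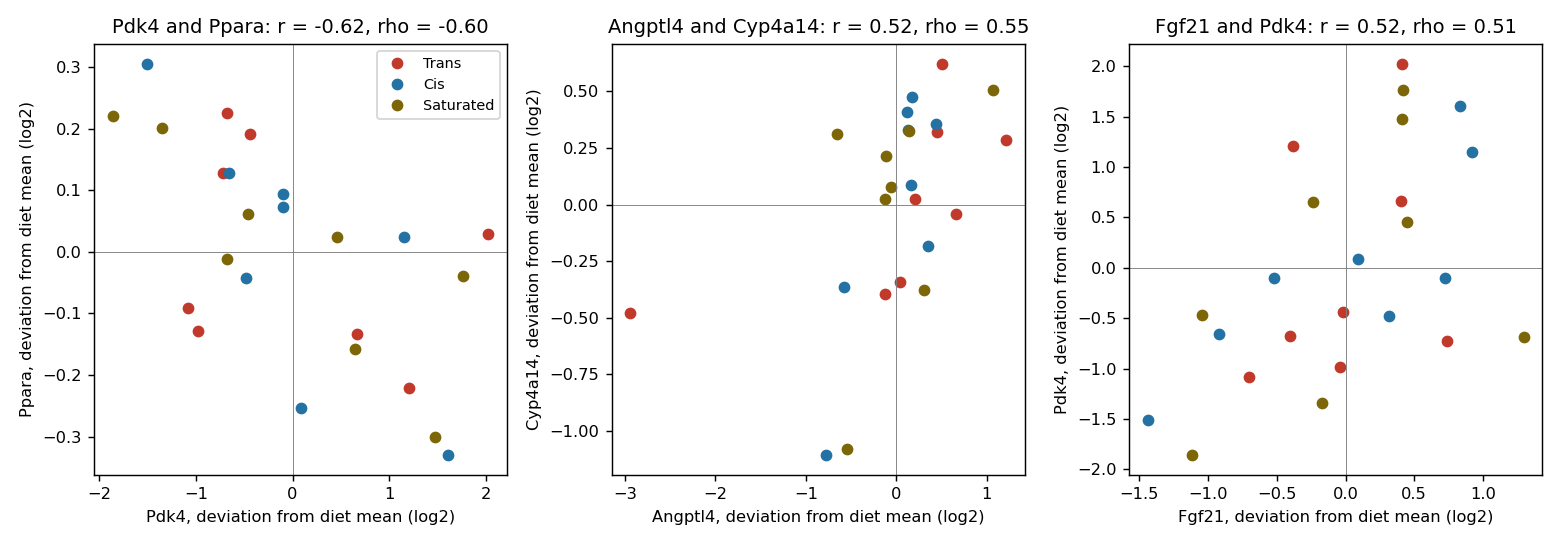
Deviations from the diet mean in log2 signal for Pdk4 and Ppara, Angptl4 and Cyp4a14, and Fgf21 and Pdk4, with 1 point for each of the 24 livers, coloured by diet. High Pdk4 goes with low Ppara (r = -0.62), and the isolated point at the left of the middle panel is Trans replicate 1.

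The genes whose pattern was most like that of each of the 8 were then sought among the 8297 others with a mean signal over 20. These correlations are descriptions over 24 livers of 3 diets. Pdk4 had by far the most neighbours: 63 genes (0.759%) had an r above 0.8 in size, 32 positive and 31 negative. Closest were Trim2 and Nedd4l, both ubiquitin ligases, at 0.92 and Caprin1 at 0.91. Most opposed were Narf at -0.95, the hepatocyte transcription factor Cebpa at -0.94 and Upp2 at -0.92. Pdk4 also lay close to the main axis of variation within diets, which held 16.7% of the variance of the 8298 genes, with an r of 0.91 in size. For Fgf21 and Ppara this r was 0.60 and 0.59, and for Creb3l3 and Cyp4a14 it was 0.06 and 0.10.

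Within the listed genes, Pdk4 went against Ppargc1b (-0.84), the glucocorticoid-responsive factor Klf15 (-0.83), the clock gene Per1 (-0.81) and Pck1 (-0.73), the entry enzyme of gluconeogenesis. It went with the cell cycle inhibitor Cdkn1a (0.82), Ehhadh (0.79), Ppard (0.75), Acot2 (0.72), Acot1 (0.70), Plin2 (0.70) and Igfbp1 (0.67). Per1 and Cdkn1a are both in the list of the glucocorticoid response. Over the 8 genes of that list the median r with Pdk4 was 0.18, with 7 positive and 1, Per1, negative. Over the 12 genes of fasting and gluconeogenesis the median r with Pdk4 was -0.36, and over the 19 other PPAR alpha targets it was 0.43. Time of day and feeding before dissection are not given, and their part was not tested.

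Vnn1 went with many of the oxidation genes, though not equally with all. Its closest neighbours were Hadh (0.86), the short-chain 3-hydroxyacyl-CoA dehydrogenase of mitochondria, Hsd17b4 (0.84), the peroxisomal multifunctional enzyme, and Ech1 (0.84), a dienoyl-CoA isomerase. Its median r with the 19 other PPAR alpha targets was 0.66, where the 7 other measured genes had -0.03 to 0.46. Among these targets it was highest with Hsd17b4, Cd36 (0.80) and Pex11a (0.80). It was lowest with the carnitine palmitoyltransferases Cpt1a (0.10) and Cpt2 (0.14). Mgll, at a median of 0.46, was closest to the carnitine carrier Slc25a20 (0.76), then Celsr1 (0.75) and Hsdl2 (0.74). Ppara itself had a median of -0.03 with the targets, and was closest to Bnip3 (0.83), the aquaporin Aqp11 (0.82) and the pyruvate dehydrogenase phosphatase Pdp2 (0.81).

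Fgf21 was closest to Plk2 (0.78), Ralgps2 (0.76) and Dhrs9 (0.75), and had no neighbour above 0.8 in size. Its median r with the PPAR alpha targets was 0.23. Among all listed genes Fgf21 was highest with Igfbp1 (0.63), a fasting-induced binding protein of insulin-like growth factors. Over the 12 genes of fasting and gluconeogenesis, Igfbp1 among them, its median r was -0.18, with 3 positive and 9 negative. Angptl4 was closest to Glo1 (0.75), Pbld2 (0.71) and Car1 (0.71). Creb3l3 was closest to Nectin3 (0.81), and its most opposed genes included Mvd (-0.74) and Fdps (-0.70), enzymes of cholesterol synthesis. With the 8 genes of lipogenesis its median r was -0.53. Cyp4a14 had the weakest neighbours, with Stimate (0.64) first.

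**Figure D4:**
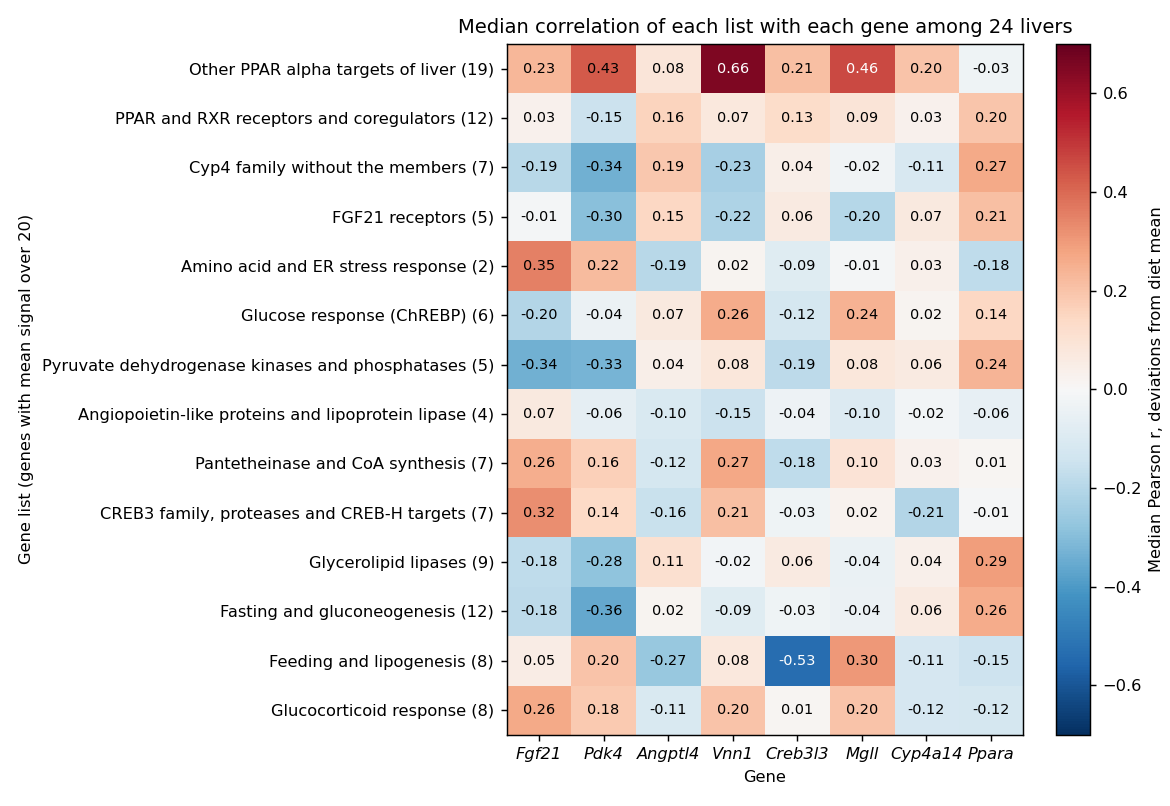
Median Pearson r between each measured gene (horizontal axis) and the genes of each list with a mean signal over 20 (vertical axis, number of genes in parentheses), from deviations from the diet mean over 24 livers. The highest median is that of Vnn1 with the other PPAR alpha targets, at 0.66, and the lowest is that of Creb3l3 with lipogenesis, at -0.53.

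The Trans liver with the low Angptl4 was also unusual elsewhere. Among genes with a mean signal over 20, the distance of Trans replicate 1 below the mean of the other 7 Trans livers was larger than for Angptl4 in Serpina4-ps1 and Hsd3b5 alone, and next after it came the transporter Slco1a1. Its Serpina4-ps1 was 1.92 against at least 3.68 in the other 23 livers, its Hsd3b5 2.08 against at least 2.85, and its Slco1a1 5.83 against at least 7.64. In the other direction, the largest distances above the mean of the other 7 Trans livers were in Ly6d (2.72), Lcn2 (2.25), Acta2 (1.93), Vldlr (1.90) and Mmp12 (1.73). Next came Cyp2b9 (1.62), a cytochrome of female-type liver. Lcn2 of this liver was 9.63 against at most 9.19 in the other 23 livers, and Cyp2b9 was 10.41 against at most 10.26. Its summed signal of recruited macrophage markers was 296, where the other 23 livers had 116 to 242, and that of smooth muscle markers was 201, where they had 47 to 199. All 5 smooth muscle markers and all 6 recruited macrophage markers had a higher mean on Trans than on Saturated, 3 and 1 of them at an unadjusted p under 0.05. Only 1 of these 5 and 2 of these 6 had a mean signal over 20. The Trans means include Trans replicate 1, and marker means without it were not taken. The hepatocyte sum of this liver, 38840, was near the low end. For all genes together, Trans replicate 1 was the lowest Trans liver for 9.36% of the 8298 genes, so it was not low throughout. The part of these markers in its Angptl4 value was not tested.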

How the data were processed

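Total RNA of 24 livers, with an RNA integrity number above 8, was hybridised to Affymetrix Mouse Gene 1.1 ST arrays. The authors normalised the arrays together with RMA in Bioconductor (versions not given in the sources used here), and deposited them as log2 values, 1 per probe set and array. The genome build was not given there either. Of 35556 probe sets, 21218 name 1 gene (18820 genes), 1881 several and 12457 none in the annotation table. A gene was read from its single-gene probe set with the highest mean. Signals are 2 to the power of the log2 value, and a mean signal over 20 is one of the mean log2 value. Levels of different probe sets were not compared. The number of arrays limits the precision.

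In R 4.3.3, limma 3.58.1 (lmFit, then eBayes with neither trend nor robust) was fitted to all livers and 3 diets with 21 residual degrees of freedom. P-values are two-sided, and adjusted p-values follow Benjamini and Hochberg within a comparison, across its 35556 probe sets, with calls under 0.05. The script was tested on simulated data. Exact permutation tests over livers and the methods' Tukey test were run for each gene. Correlations used Pearson's r and Spearman's rho with 100000 permutations of deviations from diet means (Python 3.11.15, scipy 1.17.1). Replicates are separate mice. The named genes were the 9 chosen genes, per list up to 4 genes with the smallest p in Trans against Saturated, and the 3 most correlated genes per gene; further listed genes, opposed genes and genes of Trans replicate 1 were named after their values were seen. The 9 genes and all lists were chosen with earlier results of these data known. Promoter sequences are those of RefSeq (GRCm38.p6). Alternatives were another signal filter, eBayes with trend and robust, fits of 2 groups, a replicate block, array weights, repeated quantile normalisation, median centring and leaving out livers.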

Additional observations from a re-analysis of the deposited data

Results flagged for a closer look

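Of 24 groups of 8 livers (8 genes in 3 diets), 1 held a liver whose distance from the rest passed Dixon's 95% criterion. Angptl4 in Trans replicate 1 had a log2 signal of 3.65, and its gap to the next Trans liver was 0.678 of the range of the group. For normally distributed values, chance alone gives about 1 such liver in 20 groups. Among the 8298 genes with a mean signal over 20, the lowest Trans liver passed the same limit for 709. Without that liver, Trans minus Saturated for Angptl4 went from -0.04 to 0.38 and Trans minus Cis from -0.28 to 0.14, and without Saturated replicate 2 Trans minus Saturated was 0.11.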

How the results depend on the processing

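The count of genes called stayed at 0 of 8 in all 3 comparisons under every alternative run. With single livers left out, the median difference of the 8 genes ranged from 0.15 to 0.26 for Trans against Saturated, from 0.05 to 0.14 for Trans against Cis and from 0.05 to 0.19 for Cis against Saturated. Of 576 single-gene values from leaving out 1 liver, 563 kept direction and side of the threshold and 13 turned, in 5 results, and of 240 values under the other settings 225 kept both, 5 turned and 10 passed where the adjusted limma p had not. Those 10 came from the exact permutation test and the methods' Tukey test, which are not adjusted over probe sets, for Vnn1, Mgll and Creb3l3.

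The differences that turned were small ones in variable genes. Leaving out 1 liver took Pdk4 in Trans against Saturated from -0.27 to 0.28, Angptl4 from -0.21 to 0.38 there and from -0.46 to 0.14 in Trans against Cis, Fgf21 in Trans against Cis from -0.32 to 0.012, and Cyp4a14 in Cis against Saturated from -0.049 to 0.26. Array weights gave -0.074 for Pdk4 and 0.002 for Angptl4 in Trans against Saturated. Without Trans replicate 1 and Saturated replicate 2 together, chosen after seeing the data, Pdk4 was -0.34 and Angptl4 0.53 in Trans against Saturated, and Angptl4 0.14 in Trans against Cis. The cause was not tested.

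Over all probe sets, the number called in Trans against Saturated was 3 in the fit of all livers, 0 with the 2 groups alone, 5 with the replicate block, 1 with median centring and 16 without Saturated replicate 2. Same-numbered livers of different diets deviated together with r from -0.096 to 0.288. Livers with different numbers were not compared in this way, so these values cannot show whether the numbers pair the mice. Each gene measured had a single probe set of its own, so another probe set could not be tried.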
